A study of Mus musculus with 2 samples.

Results

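The 9 genes described here encode ion channels, channel subunits and a calcium release channel of the kind that drive contraction of the ureter wall: Cacna1c, Cacna1h, Cacnb2, Kcnma1, Kcnmb1, Ano1, Hcn2, Hcn3 and Itpr1. They were chosen by symbol among the 29982 genes with values, with earlier results of these data known. Of 39429 array probes, 18 carry those symbols. RNA of mouse ureters was compared on 2 dual-colour oligonucleotide arrays. Each array was hybridised with RNA of a Pparg-cKO pool and a control pool of the same sex. Pparg encodes a nuclear receptor transcription factor of the urothelium.

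The Pparg-cKO embryos were Pax2-cre/+; Pparg(fl/fl), on the NMRI background, and the controls carried Pparg(fl/?) without cre. Pax2-cre is a transgene that recombines in the epithelium of the ureter, the nephric duct and the collecting ducts, so that the muscle wall, in which most of the 9 genes are used, lies outside its domain. Titles and protocols place the whole ureters used at E16.5, whereas the stage given for the Pparg-cKO channel of either array is E14.5. Array 1 (replicate 1) held pools of female embryos and array 2 (replicate 2) pools of male embryos. The dyes were exchanged between the arrays, so dye and sex changed together and cannot be told apart. Each array is a comparison of pools of several animals. The limma p-values rest on the spread between 2 arrays, with the variance of each gene moderated over all tested genes.

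Urine is moved along the ureter by waves of contraction that start near the renal pelvis. In smooth muscle of this kind, depolarisation opens voltage-gated calcium channels, calcium entry and release from internal stores activate myosin, chloride efflux through calcium-activated channels adds to the depolarisation, and calcium-activated potassium channels end it. Channels gated by hyperpolarisation have been described in the pacemaker tissue at the junction of renal pelvis and kidney.

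The genotype behind each dye was not settled. Pool A names the RNA pools labelled with AlexaFluor647 (red) on array 1 and AlexaFluor555 (green) on array 2, and pool B names the others. By the labels pool A is the control. By the direction that the study's text uses for urothelial genes, pool A would be Pparg-cKO. The study reports less Upk1a and Upk3b and more Krt15 in Pparg-cKO ureters at E16.5. Here the mean log2 pool A over pool B was -1.32 for Upk1a, -1.69 for Upk3b and 0.44 for Krt15. All ratios below are log2 pool A over pool B, a negative value means a brighter signal in pool B, and no genotype is assigned to either. Pparg itself had signals of 11295 (pool A) and 7430 (pool B) on array 1 and 12888 and 7872 on array 2, and its ratio averaged 0.66 ± 0.076 (SD, n = 2 arrays) with a limma adjusted p of 0.615. It passed the 1.5-fold filter described below as brighter in pool A, as did 0.157% of genes. Where its probe lies relative to the deleted exons was not determined, so it is no check of the deletion.

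The probes on which the results turn are shown by their first 30 bases, written 5′ to 3′ as in the array design, with runs of at least 4 C in capitals. Among the brightest probes of the 9 genes, those of Ano1 and Cacna1c gave the lowest mean ratios and those of Kcnmb1 and Hcn2 changed sign between the arrays. The dimmer Hcn2 probe is shown beside the brighter one, and the Cacna1h probe overlaps a probe of another gene.
Ano1, chr7:151774604-151774663, minus strand: cttgtgcagtgatgtggtttccaatgatgt
Cacna1c, chr6:118537316-118537375, minus strand: ctgtgtgagacgctactgtatattcctgta
Cacna1h, chr17:25511235-25511294, minus strand: caaagctaaggggaggggaggggcaaagca
Kcnmb1, chr11:33870457-33870516, plus strand: catttgttcaacatctttggaaagctgttt
Hcn2 brighter probe, chr10:79198412-79198471, plus strand: tgcgcccggctgtCCCCCCatcgccctgcg
Hcn2 dimmer probe, chr10:79198592-79198651, plus strand: agaatatggatcaagtgcaatactcggccc
Positions are those of the array files (mm9), and the exon or untranslated region of each probe was not determined here. A single probe represented each of Ano1, Itpr1, Hcn3 and Kcnmb1. The other 5 genes had 2 to 4 probes, of which the brightest gave the gene's value.

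All 9 genes were well above background in at least 1 RNA on both arrays and entered the test over 21429 genes. None reached the study's filter, read here as a 1.5-fold difference of the same sign on each array and a signal of 100 or more in the brighter pool, a filter met by 0.157% of genes with a brighter signal in pool A and by 0.23% with a brighter signal in pool B. No gene had a limma adjusted p under 0.05, against 0.126% of tested genes brighter in pool A and 0.187% brighter in pool B. At an unadjusted limma p under 0.05 there were 2 of the 9, Ano1 and Cacna1c, both brighter in pool B, against 2.1% of tested genes in that direction and 1.68% in the other. With 2 arrays, an exact sign test on a single gene cannot give a two-sided p below 0.5.

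The signal of 6 of the 9 genes (66.7%) was brighter in pool B on both arrays, namely Cacna1c, Cacna1h, Kcnma1, Ano1, Hcn3 and Itpr1. Among all tested genes 17.4% were. None of the 9 was brighter in pool A on both, as 21.6% of tested genes were. The other 3, Cacnb2, Kcnmb1 and Hcn2, were brighter in the red dye on both arrays, and so in pool A on array 1 and in pool B on array 2, a pattern held by 28.4% of tested genes. None followed the green dye on both arrays, as 32.6% of tested genes did. The median of the mean log2 ratios was -0.22 over the 9 genes and 0.0067 over all tested genes. Across the tested genes the ratios of the arrays had a Pearson correlation of -0.055, given as a description over genes that share both arrays.

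**Figure D1:**
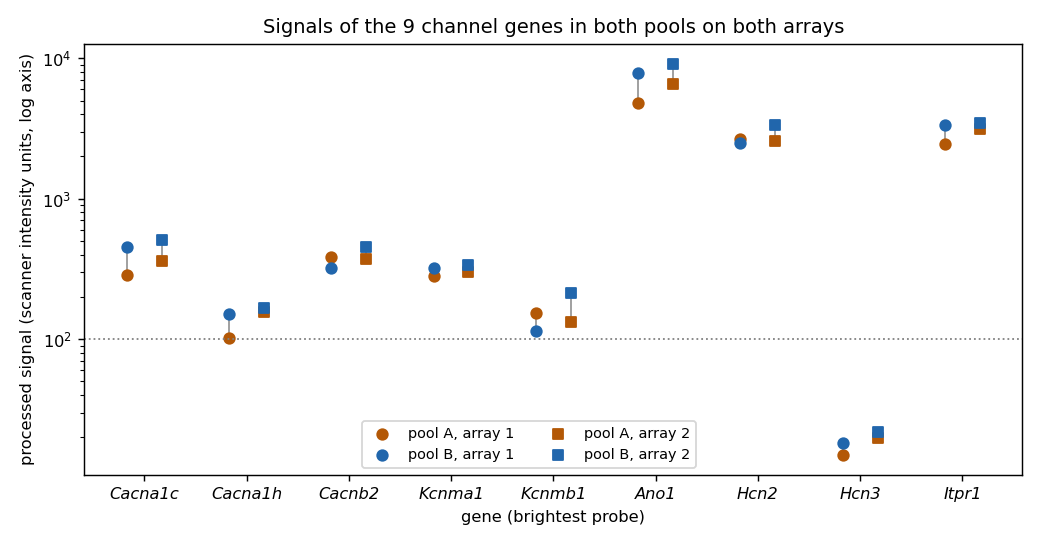
Processed signal (scanner intensity units, log axis) of the brightest probe of each of the 9 genes, in pool A and pool B on array 1 (circles) and array 2 (squares). Lines join the pools of an array and the dotted line marks a signal of 100. pool B lies above pool A on both arrays for 6 genes, and Hcn3 lies below 100 in all 4 channels.

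Cacna1c, the pore-forming subunit of the L-type calcium channel that carries the action potential of smooth muscle, had signals of 288 in pool A and 454 in pool B on array 1. On array 2 they were 359 in pool A and 508 in pool B. Both pool A signals lay below both pool B signals. pool B was brighter by 1.58-fold on array 1 and 1.42-fold on array 2, and the log2 ratio averaged -0.58 ± 0.11 (SD, n = 2 arrays). The difference was larger than the spread between the arrays, but did not pass the correction over all genes in limma (SE 0.20, 95% interval -1.03 to -0.13, adjusted p = 0.840). Of all tested genes, 1.5% had a lower mean ratio. The second Cacna1c probe gave ratios of -0.36 and -0.44 at signals of 4.88 to 9.60, and none of its spots was well above background in pool A on array 1. That probe therefore has the same sign at a level that was hardly measured.

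Cacnb2, an accessory beta subunit that brings L-type pores to the membrane, had signals of 385 (pool A) and 322 (pool B) on array 1. The signals of array 2 were 374 in pool A and 457 in pool B, so the pools overlapped and the order changed between the arrays. The ratios were 0.26 and -0.29, with a mean of -0.015 ± 0.39 (SD, n = 2 arrays, limma 95% interval -0.51 to 0.48, adjusted p = 1.00). The second tested probe behaved in the same way with ratios of 0.49 and -0.28. Its bases lie 3174 bp apart from first to last on the genome, as for a probe across an intron. The third probe did not meet the background criterion and was not tested. The values of Cacnb2 therefore leave room for a difference in either direction.

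Cacna1h encodes a T-type pore, which opens at more negative potentials than the L-type channel and has been described in ureteric pacemaker tissue. Its brightest probe gave 102 in pool A and 150 in pool B on array 1. On array 2 the signals were 157 in pool A and 166 in pool B. The pool A signal of array 2 exceeded the pool B signal of array 1, so the pools overlapped. The ratios were -0.56 and -0.083, a mean of -0.32 ± 0.34 (SD, n = 2 arrays), and the difference was within the spread between the arrays (limma 95% interval -0.81 to 0.16, adjusted p = 1.00).

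The Cacna1h probes differed in place and in value. The brightest probe overlaps by 24 bases, on the opposite strand, the probe of Tpsg1 (chr17:25511199-25511258), a mast cell tryptase, and Tpsg1 had ratios of 1.46 and 0.33. Tpsg1 was named for this position, after its values were seen. The other probes lie elsewhere on the same chromosome. One, at chr17:25568825-25568884, gave -0.83 and -0.66 at signals of 7.83 to 20.2, below the intensity threshold, with no pool A spot well above background on array 1. The other, at chr17:25569818-25569877, gave -0.48 and 0.023 at signals of 6.13 to 8.81. The size of the Cacna1h ratio thus depended on the probe, and all 3 were negative on array 1.

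Ano1 encodes a calcium-activated chloride channel whose opening depolarises smooth muscle and pacemaker cells. Its signals were 4797 in pool A and 7820 in pool B on array 1. Array 2 gave 6593 in pool A and 9171 in pool B. pool B exceeded pool A on both arrays, and the groups did not overlap. The fold in favour of pool B was 1.63 on array 1 and 1.39 on array 2, so array 2 fell short of the filter. The mean log2 ratio of -0.59 ± 0.16 (SD, n = 2 arrays) was the lowest of the 9 genes, and 1.42% of tested genes lay lower. It did not pass the correction in limma (SE 0.20, 95% interval -1.05 to -0.13, adjusted p = 0.825). The 4 spots of the probe ranged from -0.73 to -0.67 on array 1 and from -0.51 to -0.43 on array 2, so its arrays differed by more than its spots.

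Itpr1 encodes the inositol trisphosphate receptor through which calcium leaves the endoplasmic reticulum. It had signals of 2439 (pool A) and 3359 (pool B) on array 1. On array 2 they were 3142 (pool A) and 3446 (pool B), and the pools did not overlap. pool B was brighter by 1.38-fold on array 1 and 1.10-fold on array 2. The mean log2 ratio was -0.30 ± 0.23 (SD, n = 2 arrays, limma 95% interval -0.76 to 0.17, adjusted p = 1.00). The ratio of array 2 was small beside that of array 1.

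Kcnma1 and Kcnmb1 encode the pore and the smooth muscle beta subunit of the large-conductance calcium-activated potassium channel, which repolarises the cell, and their ratios took different courses. The brightest Kcnma1 probe gave 281 in pool A and 320 in pool B on array 1. On array 2 it gave 299 in pool A and 340 in pool B, and the pools did not overlap. Both arrays gave a log2 ratio of -0.19, a 1.14-fold brighter signal in pool B, and 99.9% of tested genes had a larger difference between the arrays (mean -0.19 ± 0.00032, SD, n = 2 arrays, limma adjusted p = 1.00). The other 3 Kcnma1 probes gave -0.079 and -0.36, -0.57 and -0.090, and -0.098 and -0.45 on arrays 1 and 2. All 4 probes were below 0 on both arrays, with an order that changed from array to array. The near equality of the arrays therefore belonged to the brightest probe, and limma took the spread from all genes (SE 0.20, 95% interval -0.63 to 0.26).

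Kcnmb1 had signals of 152 in pool A and 115 in pool B on array 1. Array 2 gave 133 in pool A and 214 in pool B. The order of the pools turned between the arrays and the signals overlapped. The ratios were 0.41 and -0.69, and only array 2 went past 1.5-fold (1.61-fold brighter in pool B). Their mean of -0.14 ± 0.77 (SD, n = 2 arrays) was well within the spread (limma 95% interval -0.76 to 0.48, adjusted p = 1.00), and 3.65% of tested genes had a larger difference between the arrays. The spots of the probe ranged from 0.35 to 0.49 on array 1 and from -0.73 to -0.62 on array 2. The spot ranges of the arrays did not overlap. Dye and sex, which both changed, cannot be told apart for it.

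Hcn2 and Hcn3 encode cation channels that open on hyperpolarisation and give pacemaker cells their slow depolarisation. The brighter Hcn2 probe had signals of 2674 (pool A) and 2506 (pool B) on array 1. On array 2 the values were 2566 (pool A) and 3342 (pool B), and the pools overlapped. Its ratios were 0.094 and -0.38 (mean -0.14 ± 0.34, SD, n = 2 arrays, limma 95% interval -0.63 to 0.34, adjusted p = 1.00). This probe has 35 C in its 60 bases and a GC content of 81.7%, which 0.0228% of all array probes reach, while the median probe has 41.7%. The dimmer Hcn2 probe lies downstream of it, has a GC content of 60%, and gave ratios of 0.064 and 0.13 (mean 0.095 ± 0.044, SD, n = 2 arrays) at signals of 58.5 to 65.5. It was the single tested probe of the 9 genes that was brighter in pool A on both arrays. The probes of Hcn2 therefore differed in sign on array 2, and the part of base composition in this was not tested.

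Hcn3 had the lowest signals, 14.9 in pool A and 18.2 in pool B on array 1. The signals of array 2 were 19.7 in pool A and 22.0 in pool B. Every spot was well above background, yet all 4 channels lay under the intensity threshold of 100. The pools overlapped between the arrays, with ratios of -0.28 and -0.16 (mean -0.22 ± 0.089, SD, n = 2 arrays, limma 95% interval -0.67 to 0.23, adjusted p = 1.00). Hcn4, which belongs to the same family, was not well above background and was not tested.

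**Figure D2:**
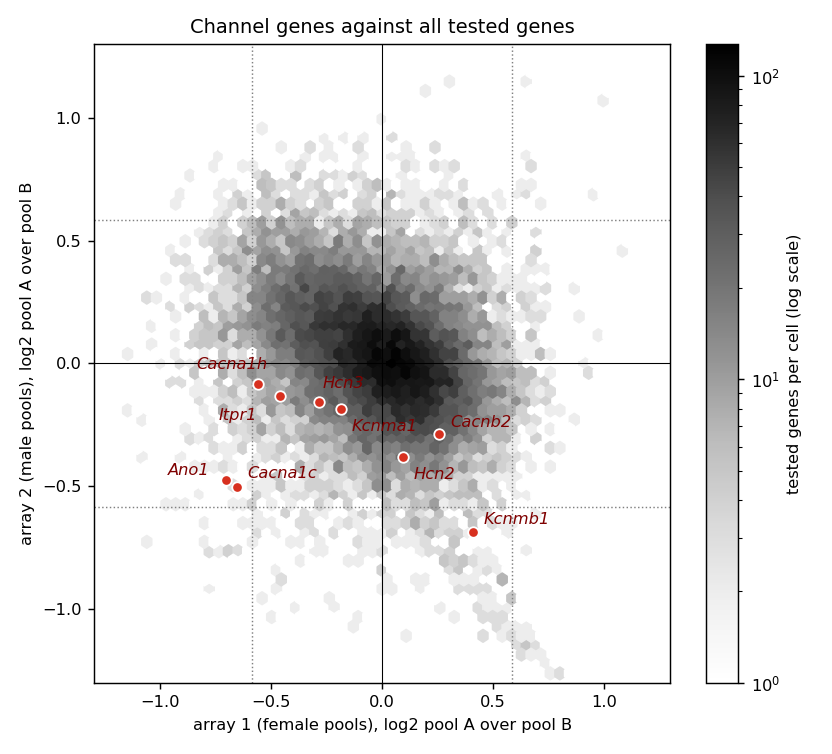
Log2 pool A over pool B on array 1 (x axis, female pools) against array 2 (y axis, male pools) for the 9 channel genes (red, brightest probe) over 21429 tested genes (grey, genes per cell on a log scale). Dotted lines mark 1.5-fold, axes end at 1.3 and leave 209 tested genes outside. Ano1 and Cacna1c lie in the lower left with 1.5-fold passed on array 1 alone, and Kcnmb1 lies in the lower right.

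Past 1.5-fold on single arrays were Ano1 and Cacna1c on array 1, where 4.91% of tested genes were as much brighter in pool B, and Kcnmb1 on array 2, where 3.71% were. The array medians of the 9 genes were close, -0.28 on array 1 and -0.29 on array 2, but 6 of the 9 had the lower ratio on array 1. Of the 18 probes 17 were tested. A brighter signal in pool B on both arrays was found for 11 probes, in pool A for 1, and the sign changed for 5. Probes of the same gene are not independent, and 4 of the 11 were those of Kcnma1. The share over all array probes was not computed. For 16 probes no spot was lost on either array. The SD among spots had a median of 0.062 log2 units, whereas the SD between arrays had a median of 0.23 and reached 0.77.

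**Figure D3:**
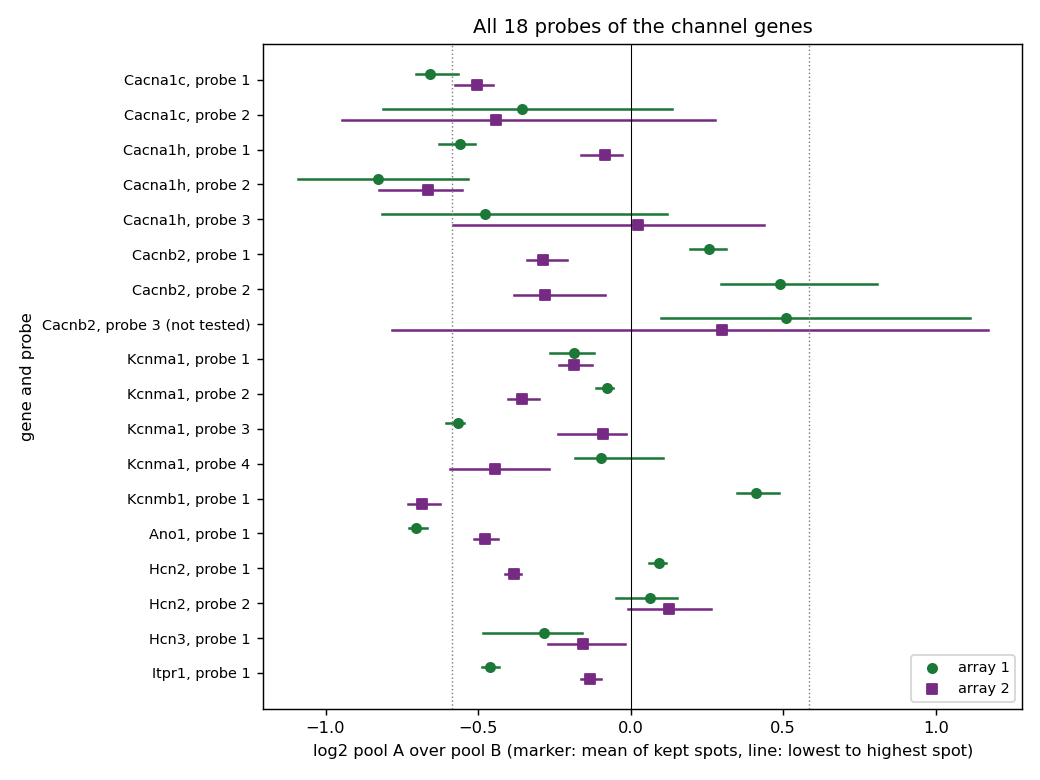
Log2 pool A over pool B of all 18 probes of the 9 genes on array 1 (circles) and array 2 (squares), with a line from the lowest to the highest spot and probe 1 as the brightest of a gene. Dotted lines mark 1.5-fold. All 4 Kcnma1 probes lie below 0, both tested Cacnb2 probes change sign between the arrays, and the Hcn2 probes separate on array 2.

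Other genes of excitation and contraction, in 7 lists of 92 genes, were examined beside the 9. Of 81 tested genes, 0 passed the filter and 0 had a limma adjusted p under 0.05, while 8 had an unadjusted p under 0.05. A brighter signal in pool B on both arrays was found for 28 and in pool A for 8, and the sign changed for 45 (median -0.043). The share brighter in pool B on both arrays was 34.6% here and 66.7% among the 9. In each list the 3 tested genes with the largest mean ratios are named.

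Among 11 tested calcium channel subunits the median was -0.042 and 4 were brighter in pool B on both arrays, the remaining 7 changing sign. The pores Cacna1s (-0.28 ± 0.36, SD) and Cacna1g (-0.23 ± 0.77), the latter another T-type channel, and the beta subunit Cacnb4 (-0.20 ± 0.043) had the largest mean ratios. Cacna1s and Cacna1g thus had a spread wider than their mean. Among 21 tested potassium channel subunits the median was 0.0098, with 6 brighter in pool B and 4 in pool A on both arrays. The voltage-gated Kcnq5 (-0.77 ± 0.34), Kcnh2 (-0.52 ± 0.57) and the small-conductance Kcnn2 (-0.49 ± 0.19) led, and Kcnq5 had a limma adjusted p of 0.490. No gene of either list passed the test.

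Among 8 tested anoctamins and chloride transporters the median was -0.15, and 5 were brighter in pool B on both arrays against 0 in pool A. Ano4 (-0.60 ± 0.65, SD), Ano5 (-0.40 ± 0.48) and Ano8 (-0.37 ± 0.071) led. Of these the mean of Ano8 alone exceeded its spread severalfold. Among 8 tested HCN, TRP and other cation channels the median was -0.076, led by Trpv4 (-0.40 ± 0.40), the stretch-activated Piezo1 (-0.24 ± 0.47) and Trpc6 (0.18 ± 0.29).

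Among 18 tested genes of calcium stores, pumps and entry the median was -0.024, with 5 brighter in pool B and 2 in pool A on both arrays. The plasma membrane pump Atp2b4 (-0.57 ± 0.35, SD) and the ryanodine receptors Ryr3 (-0.53 ± 0.34) and Ryr2 (-0.34 ± 0.16), which release calcium beside Itpr1, led this list. The gap junction genes, whose connexins couple muscle cells, had a median of 0.048 over 4 tested genes, and none was brighter in pool B on both arrays. The leading values were 0.45 ± 0.40 for Gja1, 0.10 ± 0.027 for Gja4 and -0.012 ± 0.080 for Gja5. For the control of myosin light chain, the step that follows calcium entry, the median over 11 tested genes was -0.15 and 5 were brighter in pool B on both arrays. Led by the myosin phosphatase subunit Ppp1r12b (-0.74 ± 0.25), the kinase Mylk (-0.59 ± 0.52) and the light chain Myl9 (-0.47 ± 0.11), this list had no gene past the test (limma adjusted p = 0.498 for Ppp1r12b).

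Most markers of smooth muscle, like most of the 9 channel genes, were brighter in pool B. All 12 were tested, with a median of -0.57, and 8 were brighter in pool B on both arrays against 1 in pool A. None passed the filter or the limma adjustment, and 8 had an unadjusted limma p under 0.05. The largest ratios were those of the contractile genes Myh11 (-0.80 ± 0.54, SD), Cnn1 (-0.72 ± 0.23) and Actg2 (-0.69 ± 0.21). The summed signal of the list was 80589 to 82482 in pool A and 104988 to 136373 in pool B. The part of smooth muscle content in the ratios of the channel genes was not tested, and in RNA of whole ureters fewer cells of a type and less RNA per cell cannot be told apart.

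Genes listed here as markers of pacemaker-type interstitial cells, which also use Ano1, had a median of -0.00035 over 5 tested genes, and none was brighter in pool B on both arrays. Kit, their receptor tyrosine kinase, had signals of 669 and 661 in pools A and B on array 1, against 667 and 593 on array 2 (mean ratio 0.094 ± 0.11, SD, n = 2 arrays). Tbx18 (0.014 ± 0.13) and Pdgfra (-0.017 ± 0.067) were also near 0. The summed signal of this list was 24027 to 26065 in pool A and 24004 to 26313 in pool B, so the ranges overlapped.

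Urothelial genes included members past the filter. The median over 10 tested markers was -0.39, 5 were brighter in pool B and 2 in pool A on both arrays, and 3 passed the filter as brighter in pool B, namely the superficial cell plaque genes Upk3b (-1.69 ± 0.033, limma adjusted p = 0.0201), Upk1a (-1.32 ± 0.14, limma adjusted p = 0.0451) and Upk3a (-0.70 ± 0.093, limma adjusted p = 0.513). The basal cell keratins Krt5 and Krt15 were brighter in pool A on both arrays, with means of 0.47 and 0.44, and Trp63, Cdh1 and Epcam changed sign. The summed signal of the list was 62193 to 62365 in pool A and 94873 to 97821 in pool B. Of 4 tested mast cell genes, 2 passed the filter as brighter in pool A. They were Cpa3 (1.34 ± 0.23, limma adjusted p = 0.0465) and Cma1 (1.09 ± 0.38, limma adjusted p = 0.136). The other 2 changed sign between the arrays, Fcer1a (0.54 ± 0.98) at signals of 4.77 to 11.2 and Tpsb2 (0.013 ± 0.36). The median of the mast cell list was 0.82 and its summed signal was 896 to 1093 in pool A and 474 to 506 in pool B. Of the nephron list 3 of 6 genes were tested, all brighter in pool B on both arrays (median -1.15), with Slc34a1 of the proximal tubule at -2.73 ± 0.59 (limma adjusted p = 0.0122) and Lrp2 at -0.35 ± 0.17. Their summed signal was low, 228 to 238 in pool A and 342 to 381 in pool B. The part of these cell types in the ratios of the channel genes was not tested.

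In the remaining marker lists no gene passed the filter in 1 direction or the limma adjustment. Skeletal muscle genes, which include Cacna1s, had a median of -0.15 over 9 tested (summed signal 4456 to 6331 in pool A and 6734 to 9198 in pool B), with Acta1 at -0.59 ± 0.87 (SD), Mylpf at 0.51 ± 0.044 and Myh3 at -0.34 ± 0.30. Markers of autonomic neurons and chromaffin cells, in which Cacna1h and Hcn genes are also used, had a median of 0.076 over 10 tested (10216 to 10372 in pool A and 9630 to 11630 in pool B). Among them were Prph (0.39 ± 0.44) and Th (0.18 ± 0.43), and 9 of the 10 changed sign between the arrays. Glial genes had a median of 0.069 over 5 tested (12117 to 20234 in pool A and 15840 to 17501 in pool B), with Erbb3 at -0.33 ± 0.053 and S100b at 0.22 ± 0.13. Endothelial genes had a median of 0.12 over 5 tested, and all 5 changed sign between the arrays. On array 1 their summed signal was 12153 in pool A and 10995 in pool B, and on array 2 it was 11449 and 11370. Tek was at 0.23 ± 0.39, Emcn at 0.22 ± 0.54 and Pecam1 at 0.12 ± 0.76. Red blood cell genes had a median of 0.021 over 5 tested (99028 to 100901 in pool A and 96359 to 99524 in pool B), with Slc4a1 at -0.32 ± 0.44 and Hbb-b1 at 0.10 ± 0.36. Of the marker genes, Nphs1, Slc12a1, Umod and Mcpt4 were not well above background, and Myod1 had no probe with kept spots on both arrays.

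**Figure D4:**
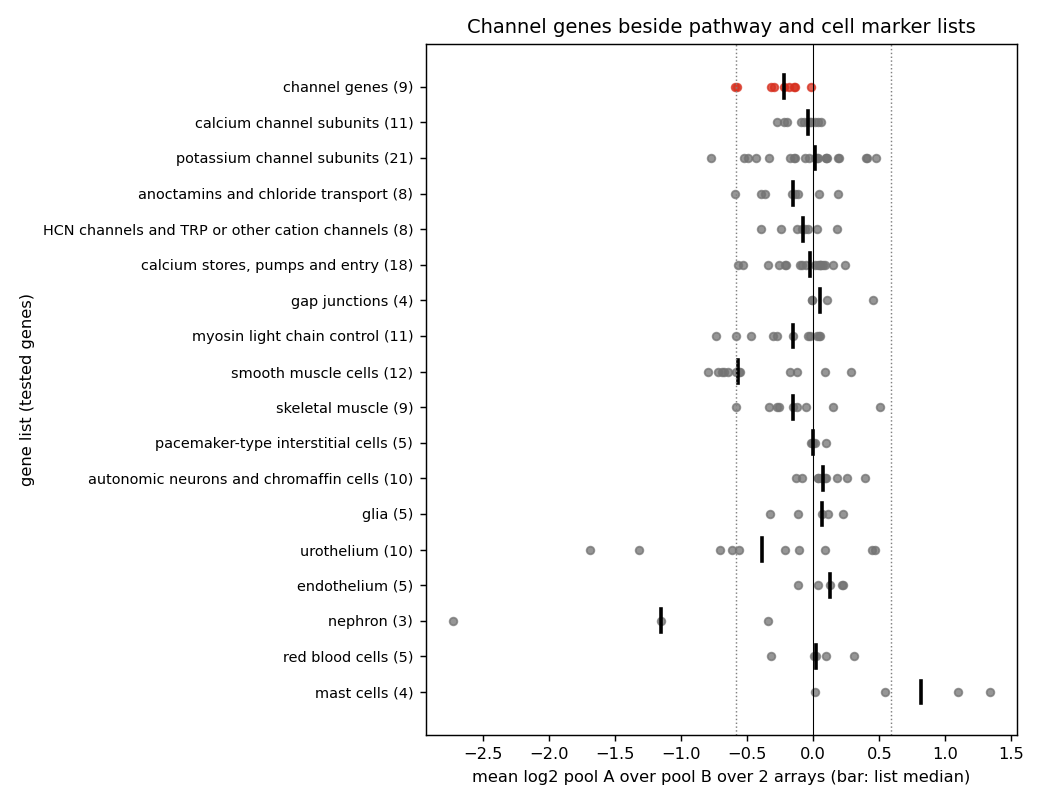
Mean log2 pool A over pool B over 2 arrays (x axis) of each tested gene in the 9 channel genes (red) and in the pathway and cell marker lists (grey), with a bar at each list's median, a line at 0 and dotted lines at 1.5-fold. The bar of the channel genes lies at -0.22, between the smooth muscle list at -0.57 and the interstitial cell list near 0.

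The labelled tissue was borne out by its markers, since Acta2 of the muscle wall had signals of 39606 to 72555 and Upk3a of the urothelium 30472 to 51988 over the 4 channels. Each array had 157716 spots, 80.3% and 80.4% of which were well above background in green and 70.4% in red on either array, with no saturated spot. The arrays shared 1 slide and 1 scan. The number of arrays limits the precision of every value given here.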

How the data were processed

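Pooled Pparg-cKO and control ureter RNA was measured on 2 dye-swapped arrays, grouped by title. Per the file headers, the deposited intensities were made with Feature Extraction 10.7.3.1 by background subtraction, surrogate values near background, a linear step and LOWESS, so the ratios of dim probes depend on those steps. The authors' deposited scores are signed fold changes of each probe, with unstated centring and direction. They correlated with log2 pool A over pool B at r = 0.997 on both arrays (18716 and 18969 probes), had a median of 1 on each array, and served as an alternative.

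Control spots (17263 per array) and flagged spots (5705 and 5579) were left out. A probe took the mean log2 signal of its kept spots, and 48 probes had no value on an array. Symbols came from RefSeq (GRCm38.p6) for 28328 probes and from the files for 11101. The brightest probe represented a gene. A probe was well above background with at least 0.5 of its spots so marked, in at least 1 RNA on both arrays for testing. The intercept of the ratios was tested with limma 3.58.1 (R 4.3.3, with the data.table package 1.17.8) and moderated variances, adjusted by Benjamini-Hochberg over 21429 genes at 0.05. A dye or sex term could not be fitted. Named are the 9 genes, Pparg, and from each list the genes called and the 3 with the largest mean ratio. Some of these list genes are not reported here. The members and lists were chosen with earlier results of these data known. The test was tested on simulated data. Alternatives were normexp (offset 50) with loess, loess alone, median centring, the authors' values, the mean over probes, other thresholds, an intensity trend, all probes without the filter, separate channels and each array left out. Plots were drawn with matplotlib 3.10.9.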

Additional observations from a re-analysis of the deposited data

Results flagged for a closer look

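Of the 9 channel genes, 3 had ratios of opposite sign in the pools of female and male embryos, with 1 array for each sex. For Kcnmb1 the log2 pool A over pool B on array 1 minus that on array 2 was 1.09, for Cacnb2 it was 0.54 and for Hcn2 it was 0.47. The difference was not tested, since no second array of either sex was analysed here. Dye and sex cannot be told apart for any of the 3. All were brighter in the red dye on both arrays, as were 28.4% of tested genes, and a further 32.6% of tested genes changed sign the other way, so a change of sign was more frequent over all tested genes than among the 9.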

How the results depend on the processing

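The count of channel genes past the filter was 0 at signal thresholds of 50, 100, 200 and none, at 2-fold, and under each other normalisation, and was 1 to 2 on a single array without a test. As reported, no channel gene was past 1.5-fold on both arrays, so the other signal thresholds and 2-fold could not change the count. limma called 0 of the 9 in each setting, the lowest unadjusted p running from 0.0086 to 0.064 between settings. The median log2 ratio was -0.22 as reported. It was -0.19 with normexp and loess, -0.22 with loess on the processed signals, -0.23 with median centring, -0.28 in the authors' deposited table and -0.25 as a mean over probes, and -0.29 to -0.28 with 1 array left out. Of 90 gene values under other settings 85 kept their direction and 5 turned. The intensity trend, the fit without the filter on dim probes and the separate channels leave the mean ratios as reported. Values under those settings could not turn, nor could the mean over probes of a gene with a single probe. Cacnb2 was 0.0025 in the deposited table and 0.044 as a mean over probes. On single arrays the values ran from -0.29 to 0.26 for Cacnb2, from -0.69 to 0.41 for Kcnmb1 and from -0.38 to 0.094 for Hcn2. The cause was not tested.

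The 4 channels fitted as separate samples with no replicate block gave 0 calls among the 9. Over all tested genes that fit called 1 as brighter in pool A and 0 in pool B, so it could hardly call any of the 9. A slide block was not possible because both arrays lay on 1 slide, and limma has no residual degree of freedom with 1 array. Over all genes the limma calls, 27 brighter in pool A and 40 in pool B as reported, were 39 and 55 as a mean over probes, 1 and 0 with normexp and loess, and 0 and 0 in the deposited table and without the filter on dim probes. Signal over background limits the dimmer Cacna1c, Cacna1h and Cacnb2 probes, and Hcn3 lay under the intensity threshold of 100.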
